A study of Mus musculus with 8 samples.

Results

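The genes described are 10 members of the interleukin-6 (IL-6) family and of its signalling chain, chosen by gene name from the 54532 genes of the deposited tables. They comprise the ligands Il6, Il11, Lif and Clcf1, the receptor chains Il6st (gp130), Il11ra1, Lifr and Osmr, the inhibitor Socs3 and the transcription factor Stat3. All 10 are protein-coding, and all 10 passed the filter on low counts that left 14723 genes for testing.

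Cultured C57BL/6 mouse cardiac fibroblasts at passage 2 received either of the plasmids by transfection. The TSP-4 group received pAAV.CMV.SV40.THBS4-HA.SV40(polyA), in which the viral CMV promoter drives HA-tagged murine Thbs4, the gene of the matricellular protein thrombospondin-4. The control group, which the sample titles call non-stimulated, received the empty plasmid pAAV-CA. Both groups were then kept for 12 h in antibiotic-free standard medium and for 24 h without serum before RNA was taken. Each group has 4 libraries, lettered A to D, and the labels say neither what a letter marks nor whether the libraries come from separate animals or cultures. The p-values therefore measure the spread between these libraries. The plasmids are different constructs, so each difference is one between plasmids.

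Poly(A) RNA was sequenced to 17123735 to 22530947 counts per library. Thbs4 had 38063, 25754, 36630 and 31675 counts in TSP-4 plasmid libraries A to D, against 2, 11, 8 and 3 counts in empty plasmid libraries A to D. All 8 fibroblast markers passed the filter, and their summed level was 9181 to 14011 CPM (counts scaled to library size) in TSP-4 plasmid libraries, against 9026 to 14352 CPM in empty plasmid libraries. All 12 macrophage markers also passed it, with sums of 307 to 1743 CPM in TSP-4 plasmid libraries, against 333 to 1412 CPM in empty plasmid libraries. Mesothelial markers summed to 538 to 974 CPM in TSP-4 plasmid libraries, against 495 to 992 CPM in empty plasmid libraries. Markers of T, B and NK cells summed to at most 0.295 CPM in TSP-4 plasmid libraries, against 0.209 CPM in empty plasmid libraries, and Cd3g, Ncr1 and Klrb1c had no count in any library. In such bulk RNA, fewer cells of a type and less RNA per cell cannot be told apart.

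Cytokines of the IL-6 family signal through gp130, a receptor chain that they share. IL-6 and IL-11 first bind a private receptor chain and then bring gp130 chains together. The signalling complexes of LIF and of CLCF1 hold gp130 and the LIF receptor, and oncostatin M in mice pairs gp130 mainly with the oncostatin M receptor. The paired chains activate JAK kinases, which phosphorylate STAT3; STAT3 induces Socs3, whose product binds gp130 and blocks the kinases. In the heart, fibroblasts are a known source of IL-6 and IL-11.

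The promoters of Il6 and Socs3 are shown because these genes stand at the start and at the feedback end of the chain and, as described further on, had letter means in the same order. Stat3 had that order too, but its window held no match of the motifs searched and is not shown. Both sequences are RefSeq promoter windows of GRCm38.p6, read 5′ to 3′ on the gene's own strand, with motif matches in capitals. The Il6 window is chr5:30012864-30013163 on the plus strand, and the Socs3 window is chr11:117969317-117969616 on the minus strand.
Il6 promoter: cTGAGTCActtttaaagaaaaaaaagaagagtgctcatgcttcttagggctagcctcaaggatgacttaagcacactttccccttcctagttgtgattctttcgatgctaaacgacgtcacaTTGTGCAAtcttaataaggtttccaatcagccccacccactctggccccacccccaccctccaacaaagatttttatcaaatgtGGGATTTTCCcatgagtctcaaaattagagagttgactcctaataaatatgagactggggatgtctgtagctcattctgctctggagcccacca
Socs3 promoter: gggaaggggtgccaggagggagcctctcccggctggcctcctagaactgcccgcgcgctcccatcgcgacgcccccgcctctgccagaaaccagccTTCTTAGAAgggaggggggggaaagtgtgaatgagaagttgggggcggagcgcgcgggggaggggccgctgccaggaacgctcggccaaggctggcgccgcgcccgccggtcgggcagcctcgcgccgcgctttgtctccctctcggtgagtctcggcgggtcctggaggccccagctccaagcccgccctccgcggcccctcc

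The capitals in the Il6 window mark, from left to right, an AP-1 match (TGAGTCA), a C/EBP match (TTGTGCAA) and an NF-kB match (GGGATTTTCC), the last of which begins 44 bases before the annotated start and the C/EBP match 128 bases before it. The capitals in the Socs3 window mark a STAT match (TTCTTAGAA), which begins 154 bases before the RefSeq start. That window lies inside the Socs3 gene as the deposited annotation bounds it (117966079 to 117970047). The RefSeq start and the match are therefore downstream of the deposited gene start. The motifs searched on both strands were TGANTCA for AP-1, TTGNGCAA for C/EBP, GGG and TTTCC with NN between them for NF-kB and TTCNNNGAA for STAT, and no matches overlapped. Of 32851 mouse promoter windows of the same length, 7.81% hold the AP-1 letters, 2.94% the C/EBP letters, 1.63% the NF-kB letters and 8.3% the STAT letters. RefSeq windows matched 9 of the 10 members, and 5 of their 12 windows held a match. The other matches were of AP-1, in windows of Il11, Lif and Osmr. A match describes letters in the window and is not a bound site.

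No member was called different between the plasmids. In edgeR's quasi-likelihood test the adjusted p was 0.999968 for each of the 10, and 0 of 10 were called at 0.05, beside 0.00679% of all tested genes, which is Thbs4 alone. The CPM ranges of the groups overlapped for every member, whereas 1.51% of tested genes had groups that did not overlap. Fold changes below are of the TSP-4 plasmid over the empty plasmid on the log2 scale, with their standard error (SE) and 95% interval. Unless a block is named, they come from the edgeR fit without letter terms, so their intervals include the spread between letters. Gene coordinates are those of GRCm38.

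Il6, the founding cytokine of the family (chromosome 5, 30013114 to 30019981, plus strand), stood at 79.8, 113, 119 and 86.8 CPM in TSP-4 plasmid libraries A to D and at 71.7, 123, 133 and 95.3 CPM in empty plasmid libraries A to D. The low libraries were A and D and the high ones B and C with either plasmid. The means were 99.7 ± 19.3 CPM in TSP-4 plasmid libraries, against 105.7 ± 27.7 CPM in empty plasmid libraries (SD, n = 4 per group). The log2 difference was -0.08 (SE 0.21, -0.58 to 0.41), with an unadjusted edgeR p of 0.704.

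Il11, the fibrosis-associated cytokine IL-11 (chromosome 7, 4772373 to 4782857, minus strand), had few counts. It had 15, 24, 12 and 28 counts, or 0.677, 1.37, 0.709 and 1.57 CPM, in TSP-4 plasmid libraries A to D. Empty plasmid libraries A to D held 18, 29, 27 and 33 counts, or 0.845, 1.71, 1.38 and 1.72 CPM. The TSP-4 plasmid library was below the empty plasmid library at every letter, but the groups overlapped, and the log2 difference of -0.38 had an interval from -1.18 to 0.41 (SE 0.35, unadjusted edgeR p 0.305). That interval includes a level 2-fold lower, which the interval with the letter as a block, -0.92 to 0.13, does not.

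Lif, the leukaemia inhibitory factor gene (chromosome 11, 4257557 to 4272514, plus strand), had the highest CPM of the ligands. It stood at 191, 245, 257 and 257 CPM in TSP-4 plasmid libraries A to D and at 246.7, 261, 306 and 261 CPM in empty plasmid libraries A to D. TSP-4 plasmid library A was the lowest of the 8 and empty plasmid library C the highest. The TSP-4 plasmid library was the lower at each letter, with a log2 difference of -0.18 (SE 0.10, -0.41 to 0.06) and an unadjusted edgeR p of 0.125.

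Clcf1 encodes cardiotrophin-like cytokine factor 1 (chromosome 19, 4214238 to 4223490, plus strand). It stood at 35.0, 32.5, 29.2 and 55.8 CPM in TSP-4 plasmid libraries A to D and at 44.9, 35.3, 39.1 and 50.7 CPM in empty plasmid libraries A to D. Library D was the highest in both groups. The log2 difference was -0.16 (SE 0.21, -0.64 to 0.33), with an unadjusted edgeR p of 0.475. In GENCODE M21, 311 of the 3806 exonic bases of Clcf1 are shared with AC109138.7 on the same strand, a gene with no value in the deposited counts.

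Il6st encodes gp130 (chromosome 13, 112464070 to 112510086, plus strand) and was the most abundant member. Its level was 932, 904, 942 and 740.0 CPM in TSP-4 plasmid libraries A to D and 816, 895, 875 and 727 CPM in empty plasmid libraries A to D. Library D was the lowest in both groups. The TSP-4 plasmid library was the higher at each letter, by a log2 difference of 0.09 (SE 0.10, -0.13 to 0.30) with an unadjusted edgeR p of 0.386.

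Il11ra1, the private receptor chain for IL-11 (chromosome 4, 41699989 to 41769474, plus strand), stood at 94.9, 120.3, 90.1 and 85.9 CPM in TSP-4 plasmid libraries A to D and at 89.9, 107, 85.8 and 76.6 CPM in empty plasmid libraries A to D. Library B was the highest in both groups, and the TSP-4 plasmid library was again the higher at each letter. The log2 difference was 0.12 (SE 0.13, -0.17 to 0.42), with an unadjusted edgeR p of 0.368. Mice carry near-identical Il11ra2 copies, whose 3 entries in the table had 0 to 4 counts per library, so reads shared with them make the Il11ra1 level uncertain.

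Lifr, the LIF receptor chain (chromosome 15, 7090614 to 7197489, plus strand), was the scarcest receptor. It stood at 14.3, 16.7, 16.7 and 9.78 CPM in TSP-4 plasmid libraries A to D and at 10.3, 17.1, 14.7 and 9.18 CPM in empty plasmid libraries A to D. Library D was the lowest in both groups. The log2 difference was 0.16 (SE 0.24, -0.37 to 0.70), with an unadjusted edgeR p of 0.507.

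Osmr, the oncostatin M receptor chain (chromosome 15, 6813577 to 6874969, minus strand), stood at 137, 204, 198 and 117 CPM in TSP-4 plasmid libraries A to D and at 99.4, 200.3, 181 and 119 CPM in empty plasmid libraries A to D. Libraries B and C exceeded A and D in both groups. The log2 difference of 0.13 had an interval from -0.50 to 0.76 (SE 0.27, unadjusted edgeR p 0.641).

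Socs3, which encodes the feedback inhibitor of gp130 (chromosome 11, 117966079 to 117970047, minus strand), stood at 8.93, 18.1, 19.0 and 14.8 CPM in TSP-4 plasmid libraries A to D and at 7.47, 21.1, 22.2 and 13.4 CPM in empty plasmid libraries A to D. Library A was the lowest in both groups, at less than the level of any other library. The TSP-4 plasmid library was the higher at A and D and the lower at B and C. The log2 difference was -0.08 (SE 0.37, -0.93 to 0.78), with an unadjusted edgeR p of 0.840.

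Stat3, the transcription factor of the chain (chromosome 11, 100885098 to 100939540, minus strand), stood at 234, 301, 323 and 228 CPM in TSP-4 plasmid libraries A to D and at 217, 308, 290.2 and 233 CPM in empty plasmid libraries A to D. Libraries B and C exceeded A and D in both groups. The log2 difference was 0.05 (SE 0.15, -0.30 to 0.40), with an unadjusted edgeR p of 0.747. It shares 72 exonic bases with Stat5a on the opposite strand, which averaged 23.1 CPM.

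**Figure D1:**
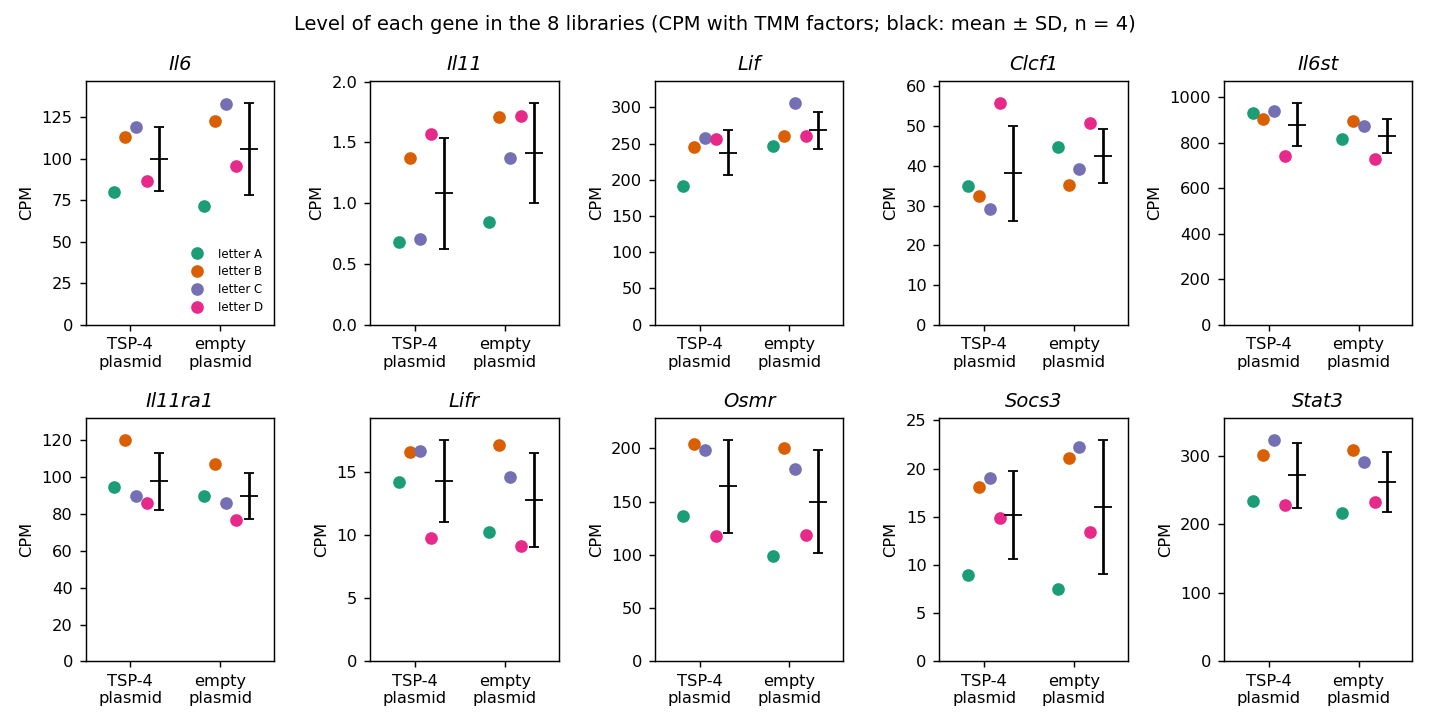
CPM of each member in the 8 libraries, with a panel per member, the TSP-4 plasmid left of the empty plasmid, points coloured by letter A to D and bars at the group mean ± SD (n = 4 each). The groups overlap in each panel, and for Il6 libraries B and C, at 113 to 133 CPM, lie above A and D, at 71.7 to 95.3 CPM, with either plasmid.

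Among the members, the sign of the fold changes divided by role. All 4 member ligands had a fold change below 0, with a median of -0.17 and values from -0.38 to -0.08. All 4 member receptors had one above 0, with a median of 0.13 and values from 0.09 to 0.16. The other ligands of the family, listed further on, did not share this sign: of 4 tested, 3 lay above 0 and 1 below. Of 3 tested other receptors, 2 lay above 0 and 1 below. Over all tested genes the median was -0.00014, 50.1% lay below 0 and 49.9% above. Of the 16 comparisons of a ligand within a letter, the TSP-4 plasmid library was the lower in 14, and of the 16 for receptors it was the higher in 14. Each letter holds 1 library of either plasmid, so these comparisons reuse the same 8 libraries and are not independent. The sign turned for Il6 without TSP-4 plasmid library A (0.012) or empty plasmid library C (0.047) and for Osmr without empty plasmid library A (-0.022), where the values are log2 differences. Il11 and Lif were lower at 4 of 4 letters, as were 8.04% of tested genes, and Il6st and Il11ra1 were higher at 4 of 4, as were 8.03%.

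A fit with the letter as a block compares the plasmids within letters. On simulated data, fits with letter terms made more false calls than the nominal share, which limits the blocked p-values. Its unadjusted edgeR p was under 0.05 for 3 of the 10 members, beside 8.12% of tested genes, whereas without the block it was so for 0 members, beside 1.6%. Lif had a blocked log2 difference of -0.18 (SE 0.05, -0.30 to -0.07) with an unadjusted edgeR p of 0.00449. Il11ra1 had 0.12 (SE 0.04, 0.03 to 0.21) with an unadjusted edgeR p of 0.0102, and Il6st had 0.08 (SE 0.04, 0.00 to 0.17) with 0.0434. After adjustment over all tested genes the edgeR p was 0.425 for Lif, 0.459 for Il11ra1 and 0.587 for Il6st, and 0 of 10 members were called, beside 0.0136% of genes. For Il6 the blocked interval was -0.18 to 0.04 and for Socs3 it was -0.23 to 0.16.

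**Figure D2:**
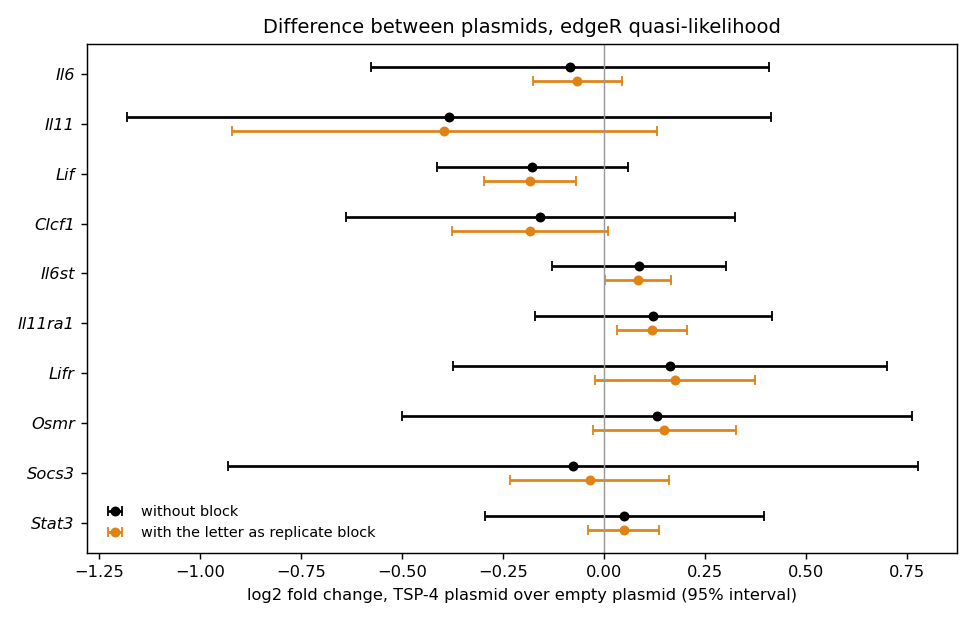
Log2 fold change of each member, TSP-4 plasmid over empty plasmid, with 95% intervals from edgeR's quasi-likelihood fits without and with the letter as a block. The 4 ligands lie left of 0 and the 4 receptors right of it, every interval without the block crosses 0, and with the block those of Lif (-0.30 to -0.07), Il11ra1 (0.03 to 0.21) and Il6st (0.00 to 0.17) do not.

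Levels of different genes were compared per length, as the FPKM (fragments scaled to gene length and library size) that the authors deposited. Over the 8 libraries Il6st averaged 76.6 ± 7.52 FPKM, which exceeded the level of 95.7% of tested genes. It was followed by Lif at 57.9 ± 6.93, Il6 at 42.1 ± 8.98, Stat3 at 27.9 ± 4.38 and Il11ra1 at 20.9 ± 3.04 FPKM (SD, n = 8 each). Below these came Osmr at 12.9 ± 3.53, Clcf1 at 10.8 ± 2.503, Socs3 at 5.38 ± 1.85, Lifr at 1.25 ± 0.306 and Il11 at 0.616 ± 0.215 FPKM (SD, n = 8 each). Each gene exceeded the next within all 8 libraries, except that Osmr exceeded Clcf1 in 5 of 8 and Lifr exceeded Il11 in 7 of 8. The range over libraries did not reach that of the next gene between Il11ra1 and Osmr, between Clcf1 and Socs3 and between Socs3 and Lifr; the other neighbours overlapped.

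Among the receptors, the Il6st transcript exceeded those of its partner chains. The FPKM ratio of Il6st to Lifr was 61.1 ± 9.46 in TSP-4 plasmid libraries, against 65.6 ± 13.4 in empty plasmid libraries, and that of Il6st to Osmr was 6.08 ± 1.28 in TSP-4 plasmid libraries, against 6.45 ± 1.84 in empty plasmid libraries (SD, n = 4 per group). The ratio of Il6st to Il11ra1 was 3.67 ± 0.525 in TSP-4 plasmid libraries, against 3.74 ± 0.309 in empty plasmid libraries. Among the ligands the FPKM ratio of Lif to Il6 was 1.35 ± 0.209 in TSP-4 plasmid libraries, against 1.48 ± 0.327 in empty plasmid libraries. Each of these differed between the plasmids by less than its spread over libraries.

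**Figure D3:**
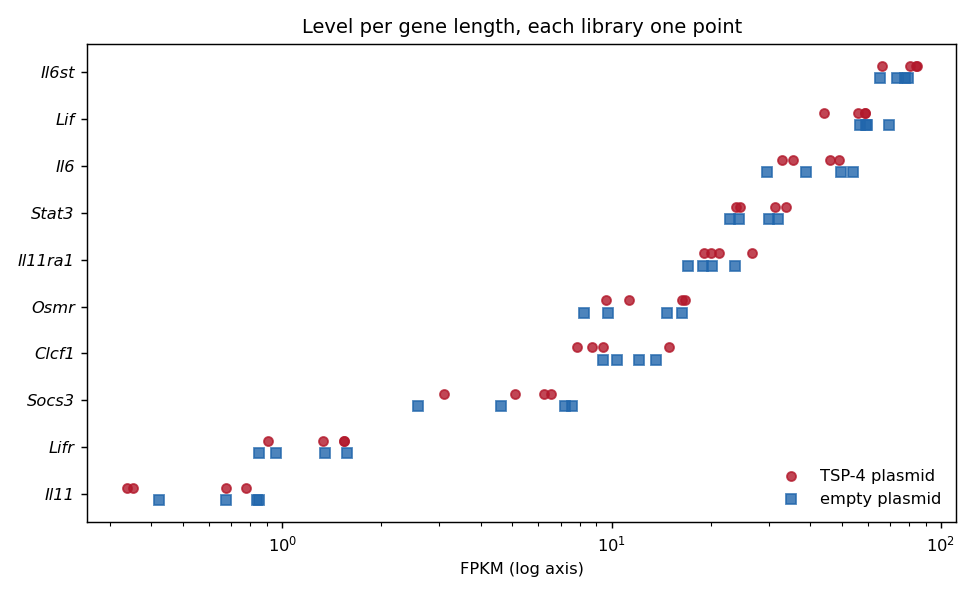
Level per length (FPKM, log axis) of the 10 members in order of their mean, with a point per library and the TSP-4 plasmid above the empty plasmid. Il6st leads at 76.6 FPKM and Il11 is last at 0.616 FPKM, and the points of Il6, Osmr and Socs3 spread more widely than those of Il6st and Lif.

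The members differed between letters. The tests of letters use the letter terms that made more false calls than the nominal share on simulated data. In edgeR's test of the letter terms 9 of the 10 had an adjusted p under 0.05, all but Il11 (0.0735), beside 28.1% of all tested genes. Among the 10783 tested genes with a mean of at least 5 CPM, a level that all members but Il11 reach, 32.4% were called. The distance from the lowest to the highest letter mean had a median of 0.69 (log2) over the members, against 0.30 over all tested genes and 0.23 over those at 5 CPM or more.

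Socs3 had the widest such range of the members, 1.32 on the log2 scale, but without both A libraries its range was 0.53, below those of Lifr (0.83), Osmr (0.77), Il11 (0.68) and Clcf1 (0.66). Its letter means were 8.20 CPM for A, 19.6 for B, 20.6 for C and 14.1 for D, and the letter test gave an adjusted edgeR p of 1.87e-05. Il6 had letter means of 75.8, 118, 126 and 91.1 CPM for A to D, a range of 0.74, with an adjusted edgeR p of 1.77e-05; without both A libraries the range was 0.46. Stat3, at 225, 304, 307 and 231 CPM for A to D, had a range of 0.44, with an adjusted edgeR p of 3.34e-05. The largest gap between the plasmids within a letter was 0.26 for Socs3, 0.16 for Il6 and 0.15 for Stat3 on the same scale, which in each case was less than the range between letters.

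These 3 genes ranked the letters alike, with C highest, then B, D and A, an order that 8.09% of tested genes share. Osmr, with letter means of 118, 202, 189.8 and 118 CPM for A to D, and Lifr, with 12.3, 16.9, 15.7 and 9.48 CPM, were highest at B. Their ranges were 0.80 and 0.83, with adjusted edgeR p-values of 0.0015 and 0.00106. Il6, Socs3, Stat3, Osmr, Lifr and Il6st had B and C above A and D, 6 of the 10 members, beside 25.4% of tested genes. Il6st did so with a small range of 0.31 (adjusted edgeR p 0.00189), which rested on D: without the D libraries its range was 0.04 and the adjusted edgeR p 0.836.

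The remaining members took other orders. Clcf1 was highest at D, with letter means of 39.9, 33.9, 34.2 and 53.3 CPM for A to D (range 0.65, adjusted edgeR p 0.00669). Il11ra1 was highest at B, with 92.4, 114, 87.9 and 81.3 CPM (range 0.48, adjusted edgeR p 0.000114). Lif ranged by 0.37 with A lowest (219, 253, 281 and 259 CPM, adjusted edgeR p 0.0151). Leaving out both libraries of a letter ended the call of Lif without A (0.121) or C (0.0777), of Il11ra1 without B (0.0912), and of Clcf1 (0.102) and Lifr (0.0603) without D, where the values are adjusted edgeR p-values. The calls of Il6, Osmr, Socs3 and Stat3 held in all 11 alternatives tried.

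**Figure D4:**
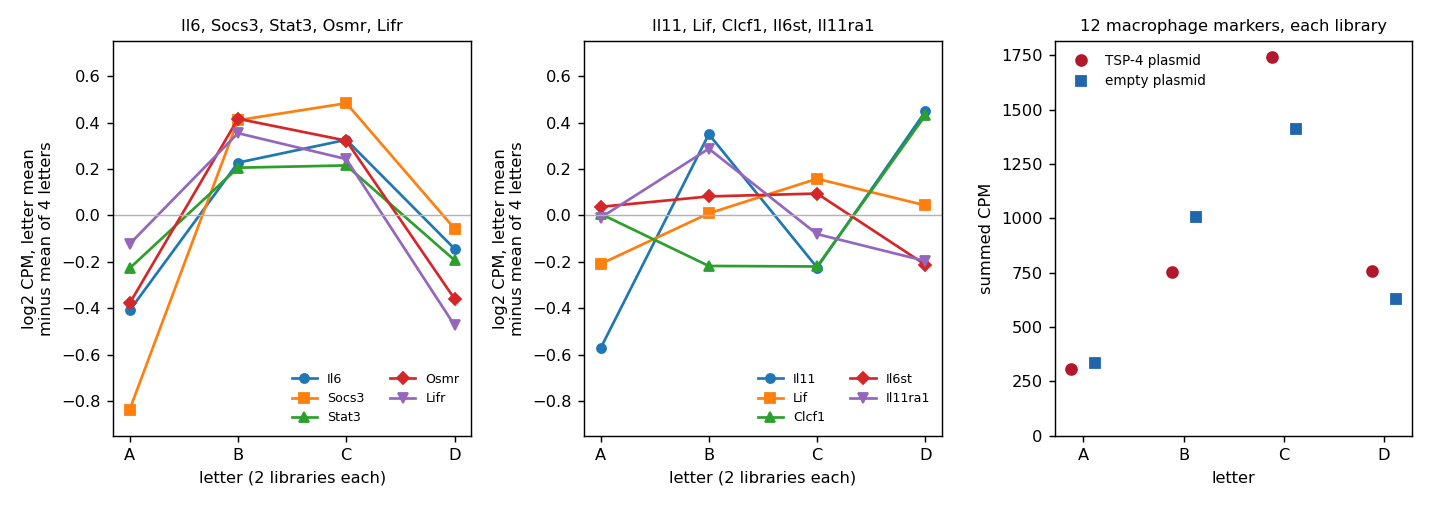
Letter means of log2 CPM minus the mean of the 4 letters, with letters A to D on the x axis and a line per member, for Il6, Socs3, Stat3, Osmr and Lifr (left) and the other 5 members (middle), and summed CPM of the 12 macrophage markers in each library (right, circles TSP-4 plasmid, squares empty plasmid). Socs3 is lowest at A (-0.84) and highest at C (0.48), Clcf1 peaks at D (0.43), and the macrophage sum is highest at C, at 1743 CPM with the TSP-4 plasmid, against 1412 CPM with the empty plasmid.

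The macrophage markers also differed between letters. Their summed level was 307, 753, 1743 and 758 CPM in TSP-4 plasmid libraries A to D and 333, 1008, 1412 and 632 CPM in empty plasmid libraries A to D, with letter means of 319.9, 880.4, 1578 and 695 CPM. Of the 12 markers, 12 were called between letters, beside 28.1% of all tested genes, and none was at 0. The order C, B, D, A of Il6, Socs3 and Stat3 was that of 11, beside 8.09% of tested genes. The median range over these markers was 2.41 on the log2 scale, and their median fold change between plasmids was 0.04. The fibroblast sum had letter means of 12659, 14182, 11727 and 9104 CPM for A to D. Of the 8 fibroblast markers 7 were called, beside the same 28.1% of all tested genes, and B was highest in 7. The mesothelial sum had letter means of 983, 517, 595 and 859 CPM for A to D. The part of these cells in the letter differences of the members was not tested.

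Other genes of the pathway were taken from lists, which were chosen with earlier results of these data known. None of these genes was called between the plasmids, with or without the block. Of 8 other ligand genes, 4 were tested and 3 differed between letters, beside 28.1% of all tested genes. Osm, the ligand of the Osmr chain, was low, at 0.743 ± 0.530 CPM in TSP-4 plasmid libraries, against 0.794 ± 0.437 CPM in empty plasmid libraries (SD, n = 4 per group), and it took the letter order C, B, D, A with a range of 2.098 (adjusted edgeR p 0.0117). Of 4 other receptor genes in the table, 3 were tested and 2 differed between letters, beside the same 28.1%. Il6ra, the private IL-6 receptor chain and 1 of these, stood at 13.7 ± 2.09 CPM in TSP-4 plasmid libraries, against 12.9 ± 3.27 CPM in empty plasmid libraries.

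All 4 JAK kinase genes differed between letters, beside 28.1% of all tested genes. Each had B and C above A and D, as did 25.4% of tested genes, and 11.3% were called and had this pattern. The ranges were 1.00 for Jak2, 0.86 for Jak3, 0.36 for Jak1 and 0.34 for Tyk2 on the log2 scale. Of the 5 tested STAT genes other than Stat3, 0 were called between letters, beside the same 28.1%, and their median range was 0.18. Of 17 other feedback inhibitors and adaptors 6 were called, namely Socs1, Socs2, Socs5, Ptpn6, Gab1 and Grb2, with a median range of 0.24 over the list, a share near the 28.1% of all tested genes. Both proteases that shed receptor ectodomains, Adam10 and Adam17, were called, beside the same 28.1% of all tested genes, with ranges of 0.30 and 0.51.

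Most of the listed genes known to respond to STAT3 differed between letters. The lists of this paragraph were chosen with earlier results of these data known, so the shares below are descriptions. Of 18 such genes, 16 were called, all but Mcl1 and Bcl2l1, beside 28.1% of all tested genes and 32.4% of those at 5 CPM or more, with a median range of 0.69, and A was the lowest letter in 15 of them, as in 28.3% of tested genes. Lcn2, which encodes the iron-scavenging protein lipocalin-2, had letter means of 14.2, 100.4, 36.7 and 16.1 CPM for A to D and a range of 2.82. Saa3, an acute-phase gene, had 12.3, 38.4, 45.6 and 26.5 CPM for A to D and a range of 1.90. A list of 10 genes upstream of Il6 mRNA held NF-kB subunits and a cofactor, the IL-1 receptor Il1r1, NF-kB inhibitors and factors that degrade or stabilise the mRNA. Of these, 9 were called, beside the same 28.1% and 32.4%, with a median range of 0.70, and A was the lowest in 9, beside 28.3% of tested genes. Zc3h12a, whose product degrades Il6 mRNA, had a range of 1.36, and Nfkbia, the inhibitor of NF-kB, had a range of 1.08. The order C, B, D, A of the macrophage sum was that of 4 of the 18 STAT3-responsive genes and 4 of the 10 upstream genes, beside 8.09% of tested genes. The fibroblast and mesothelial sums given above also varied between letters, in other orders. The part of these cells was not tested.

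**Figure D5:**
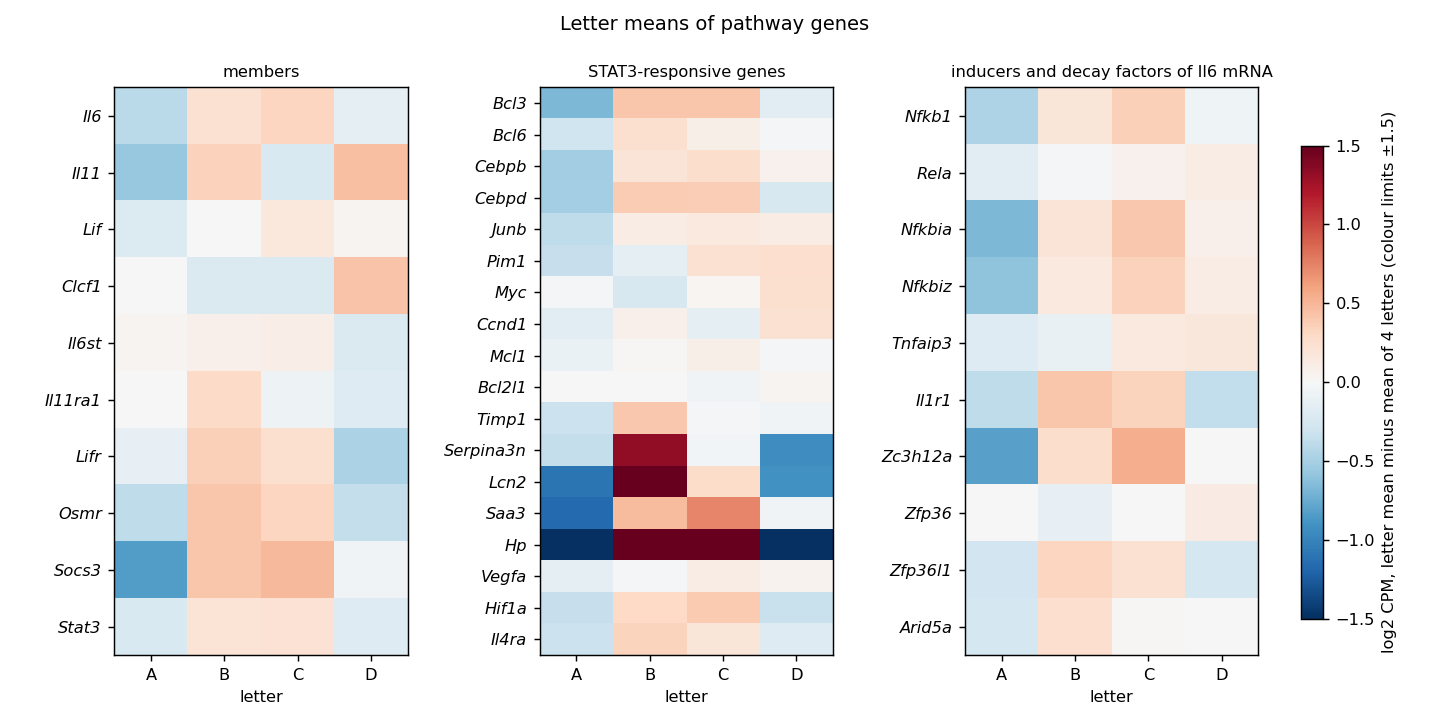
Letter means of log2 CPM minus the mean of the 4 letters, for the 10 members (left), 18 STAT3-responsive genes (middle) and 10 genes that act on Il6 transcription or mRNA, titled inducers and decay factors (right), with letters A to D as columns and colours limited at ±1.5. Letter A is the lowest in 15 of the 18 STAT3-responsive genes and in 9 of the 10 genes on the right, and Mcl1 and Bcl2l1 are nearly white across the letters.

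The genes most like each ligand and Socs3 over the 8 libraries were found as those with the smallest mean absolute difference in centred log2 CPM among 11986 protein-coding genes. For Il6 they were Fut4 (0.047), Slc2a1 (0.047) and Sap30 (0.050), against a mean absolute deviation of 0.277 for Il6 itself. For Lif they were Nufip1 (0.039), Por (0.040) and Stk38l (0.052), against 0.11 for Lif. For Clcf1 they were Fam169b (0.050), Dctd (0.061) and Sema7a (0.070), against 0.26. For Socs3 they were Gpsm3 (0.086), Slco3a1 (0.099) and Ugt1a7c (0.10), against 0.45, and for Il11 they were Wnt11 (0.14), Sp9 (0.14) and Rasl12 (0.17), also against 0.45. Slc2a1, the glucose transporter GLUT1, stood at 54.6, 77.7, 86.6 and 65.1 CPM in TSP-4 plasmid libraries A to D and at 48.8, 83.1, 85.4 and 65.5 CPM in empty plasmid libraries A to D. It took the letter order of Il6, which its selection by likeness to Il6 over the same libraries favours.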

How the data were processed

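Poly(A) RNA of 8 cultured mouse cardiac fibroblast libraries was sequenced by the submitters. Per the labels' protocols, library preparation used a NEBNext Ultra kit. Named in the submitters' processing notes, without roles, are the builds GRCm38.p6 and mm10 and the tools HTSeq 0.6.1, TopHat2 2.0, Cufflinks 2.1.1 and CASAVA. The handling of multi-mapping reads, the strand setting and the annotation release were not given in the sources used here. The deposited count table holds raw whole-number counts per gene, taken without change. The second deposited table gives the authors' FPKM, and for well-counted genes it was checked to equal count over length and total times a constant per library.

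Counts were tested with edgeR 4.0.16 (quasi-likelihood, robust, TMM factors) in R 4.3.3 after its expression filter at a minimum count of 10, with no term but plasmid; p-values were adjusted by Benjamini-Hochberg over all tested genes, with a threshold of 0.05. CPM divide each count by the library's total over tested genes times its TMM factor. Letters were tested as 3 terms beside plasmid. Alternatives were DESeq2 1.42.0, limma 3.58.1 on voom weights or on log2(FPKM + 1), other scalings and filters, the letter as a block, and fits with libraries left out. The edgeR fits of plasmid and letter were tested on simulated data, in which fits with letter terms made more false calls than the nominal share. After subtraction of the group means, same-letter libraries correlated across genes at 0.508 to 0.651, above the limit of 0.1. The letters were therefore taken to pair the libraries, which the data show and the labels do not state. No pair of libraries of a group was as alike as sampling noise.

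The members, lists and named genes were chosen with earlier results of these data known. Every member is named, and the genes printed from each list are a selection made with their values known. The 5 CPM background, the counts by letter order and the restriction of the likeness search to protein-coding genes were chosen after seeing the data. Likeness used log2 CPM with a prior count of 2, among genes with a mean of at least 1 CPM. Il11ra2 has several entries and was left out of its list. A gene of the ligand list is not reported here. Intervals of fold changes without the block include the spread between libraries, and those with the block leave out the spread between letters.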

Additional observations from a re-analysis of the deposited data

Results flagged for a closer look

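The 10 members were examined in both groups of 4, on the CPM and the log2 CPM scale, for a library far from the other 3 of its group, which chance gives in about 5% of groups. Among these 40 values, 2 met the limit, both on the log2 scale and neither on the CPM scale. Lif in TSP-4 plasmid library A, at 191 CPM, stood below the others at 245 to 257 CPM, and the gap was 0.841 of the group's range. Il6st in TSP-4 plasmid library D, at 740.0 CPM, stood below the others at 904 to 942 CPM, and the gap was 0.832 of the range. In the empty plasmid group the library of the same letter was also the lowest for both genes, at 246.7 CPM for Lif and 727 CPM for Il6st.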

How the results depend on the processing

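Without a replicate block, 1 gene (Thbs4) was called between plasmids under every alternative and with any library left out, and 0 members were called under every alternative, blocked fits included, except that Il11 and Lifr got no adjusted p from DESeq2 with the block. With the replicate block 2 genes were called (1 higher, 1 lower) by edgeR, 2 by limma voom and 10 (6 higher, 4 lower) by DESeq2. With the block and without both libraries of letter A, B or C, 5, 4 and 2 genes were called. Socs3 changed sign to 0.033 with the block and without letter B, and to 0.042 without letter C. With each library left out in turn, the fold change of Il6 ran from -0.23 to 0.047, of Osmr from -0.022 to 0.30, of Socs3 from -0.32 to 0.12 and of Stat3 from -0.038 to 0.14. The sign turned for Il6 without TSP-4 plasmid library A or empty plasmid library C, for Osmr without empty plasmid library A, for Socs3 without TSP-4 plasmid library A or empty plasmid library B or C, and for Stat3 without TSP-4 plasmid library B or C or empty plasmid library A or D. The other 6 members kept their sign but not their size: without TSP-4 plasmid libraries, Il11 ran from -0.62 (library D) to -0.20 (library A), Lif from -0.22 (D) to -0.085 (A) and Clcf1 from -0.40 (D) to -0.046 (C). Il6st ran from 0.029 (empty plasmid library D) to 0.16 (TSP-4 plasmid library D), Il11ra1 from 0.0072 (TSP-4 plasmid library B) to 0.22 (empty plasmid library B) and Lifr from 0.033 (empty plasmid library D) to 0.33 (empty plasmid library B). Between letters, 4134 genes were called by edgeR and 2716 by DESeq2. limma on log2(FPKM + 1) called Il11 (adjusted p 0.0381) and did not call Lif (0.0863). The cause of these differences was not tested. Il11 had 12 to 33 counts per library, the fewest of the members.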

Other observations

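The list of 10 genes that act on Il6 transcription or mRNA mixes activators, NF-kB inhibitors, decay factors and the stabilising factor Arid5a. Of these, 9 had a fold change below 0, with a median of -0.10, and 4 were lower at each of the 4 letters, beside 8.04% of tested genes. With the letter as a block, 4 of the 10 had an unadjusted edgeR p under 0.05, beside 8.12% of tested genes, and 0 were called after adjustment. The limit of blocked fits on simulated data, given above, holds for the blocked p-values here too. Nfkbiz, an NF-kB cofactor that acts on the Il6 promoter, stood at 76.8 ± 20.3 CPM in TSP-4 plasmid libraries, against 85.9 ± 21.0 CPM in empty plasmid libraries (SD, n = 4 per group), with a blocked log2 difference of -0.17 (SE 0.04, edgeR p 0.00119). Nfkb1 and Tnfaip3 had blocked differences of -0.14 (SE 0.04, edgeR p 0.00469) and -0.14 (SE 0.04, edgeR p 0.00832). Of 18 STAT3-responsive genes, 2 were lower at 4 of 4 letters, a share near the 8.04% of all tested genes. They were Cebpb and Junb, which encode transcription factors. Cebpb stood at 160.3 ± 38.8 CPM in TSP-4 plasmid libraries, against 180.0 ± 36.9 CPM in empty plasmid libraries, with a blocked difference of -0.18 (SE 0.04, edgeR p 0.00103) and an adjusted p of 0.339.

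Ctf1, which encodes the gp130 ligand cardiotrophin-1, was higher at 4 of 4 letters, unlike the 4 ligands described above. It stood at 5.78, 4.51, 5.67 and 3.93 CPM in TSP-4 plasmid libraries A to D and at 5.07, 4.24, 3.62 and 3.70 CPM in empty plasmid libraries A to D, and its log2 difference of 0.26 had an SE of 0.18 (unadjusted edgeR p 0.1797). Of 17 feedback inhibitors and adaptors, 2 were higher at 4 of 4 letters, Gab1 and Pias1, a share near the 8.03% of all tested genes. Gab1, which links gp130 to the MAP kinase route, had a level of 30.4 ± 4.52 CPM in TSP-4 plasmid libraries, against 26.5 ± 2.89 CPM in empty plasmid libraries (blocked difference 0.20, SE 0.07, edgeR p 0.00961). Pias1, which encodes an inhibitor of STAT proteins, stood at 37.4 ± 2.77 CPM in TSP-4 plasmid libraries, against 33.6 ± 1.47 CPM in empty plasmid libraries (log2 difference 0.15, SE 0.07, unadjusted edgeR p 0.0477). None of the 3 was called after adjustment.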
